A study of Mus musculus with 8 samples.

Results

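The genes of MHC class I antigen presentation were followed in the livers of mice labelled as lacking Arid1a in hepatocytes. The set comprised 10 genes, taken by symbol from the 35638 genes of the deposited expression table. They were the heavy chains H2-K1 and H2-D1, the light chain B2m, the peptide transporter subunits Tap1 and Tap2, the loading factor Tapbp, the immunoproteasome subunits Psmb8, Psmb9 and Psmb10, and the transactivator Nlrc5. RNA was sequenced from frozen livers of mice on a mixed C57/B6 and 129 background at postnatal day 90. All mice carried floxed Arid1a alleles (Arid1a Fl/Fl). The 4 samples called WT carried nothing further, and the 4 samples called KO also carried Alb-cre. This transgene drives Cre recombinase from the albumin promoter in hepatocytes. Which other cells of the liver keep Arid1a was not measured here. Arid1a encodes a subunit of SWI/SNF, a complex that remodels chromatin, and the series asks how its loss alters the liver in steatohepatitis.

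Class I molecules show fragments of a cell's own proteins to CD8 T cells and are made by nearly all nucleated cells, hepatocytes included. The proteasome cuts proteins into peptides, TAP carries the peptides into the endoplasmic reticulum, and tapasin (Tapbp) holds TAP beside the empty heavy chain and B2m until a peptide binds. Interferons raise the transcription of these genes through IRF and STAT factors, while NLRC5 acts at the X and Y boxes of class I promoters. Class II molecules, in contrast, are made mainly by macrophages, dendritic cells and B cells.

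The promoters are shown because the class I genes share control elements in them. RefSeq promoter sequences (GRCm38.p6) were matched by symbol for 8 of the 10 genes, the others being Tap2 and Nlrc5. Capitals mark letters that match an interferon regulatory factor (IRF) core (AANNGAAA), the core of the interferon-stimulated response element (GAAA then 2 free bases then GAAA), a STAT core (TTCNNNGAA), an X2 box core (TGACG), a Y box core (CCAAT) or the kappa B motif, on either strand. The IRF core overlaps the longer response element, and it and the X2 core were added to the search after the sequences had been seen. The 200 bases before the start of H2-K1 (chr17:34000348-34000547, minus strand), H2-D1 (chr17:35262894-35263093, plus strand) and B2m (chr2:122147487-122147686, plus strand), and the 225 bases between the starts of Tap1 and Psmb9 (chr17:34187331-34187555, written along the Tap1 strand), read 5′ to 3′ as follows.
H2-K1: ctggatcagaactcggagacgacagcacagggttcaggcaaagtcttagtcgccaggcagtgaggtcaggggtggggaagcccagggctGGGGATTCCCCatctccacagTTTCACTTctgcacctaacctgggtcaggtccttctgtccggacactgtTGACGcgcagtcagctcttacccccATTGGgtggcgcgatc
H2-D1: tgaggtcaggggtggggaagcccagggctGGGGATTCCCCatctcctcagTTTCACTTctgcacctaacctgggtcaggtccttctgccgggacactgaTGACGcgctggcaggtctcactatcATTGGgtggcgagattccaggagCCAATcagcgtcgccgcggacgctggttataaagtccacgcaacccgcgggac
B2m: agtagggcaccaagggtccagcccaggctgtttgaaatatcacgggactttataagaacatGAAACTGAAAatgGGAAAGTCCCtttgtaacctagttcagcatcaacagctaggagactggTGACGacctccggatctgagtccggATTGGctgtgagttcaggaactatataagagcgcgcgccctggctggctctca
Tap1/Psmb9: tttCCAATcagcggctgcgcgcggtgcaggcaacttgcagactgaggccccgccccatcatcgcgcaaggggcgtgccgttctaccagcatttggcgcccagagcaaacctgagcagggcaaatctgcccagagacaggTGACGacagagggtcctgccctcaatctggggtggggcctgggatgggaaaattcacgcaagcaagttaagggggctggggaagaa
The windows of H2-K1 and H2-D1 were alike, with 128 of 140 aligned bases identical (91.4%). Both carried a kappa B match, an IRF core, an X2 core and a Y box core in the same order. B2m carried the same 4 kinds of match with the IRF core before the kappa B match, and its IRF core lay inside the only full response element core found among the 8 genes. Over the full promoter windows of the table, the IRF core was present in 3 of 8 genes (H2-K1, H2-D1 and B2m) against 23.9% of 32851 promoters, and the kappa B motif in the same 3 genes against 8.46%. The X2 core was present in 5 of 8 genes against 20.8%, and the Y box core in 6 of 8 against 37.4%. The response element core was found in 3.44% and the STAT core, present in Psmb8 alone among the 8, in 8.30% of all promoters. With the RefSeq starts, Tap1 and Psmb9 start back to back from 1 stretch of DNA, so their X2 and Y box matches are the same letters and not separate observations. The gene positions given below are those of GENCODE M21, where H2-D1 starts at 35262730 and Psmb9 at 34187764. With those starts the printed window of H2-D1 lies inside the gene, and Psmb9 and Tap1 overlap. Because the windows of H2-K1 and H2-D1 are so alike, their matches cannot be counted as separate observations either.

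None of the 10 genes passed the test between KO and WT livers. Two-sided limma tests on log2(FPKM + 1), adjusted by Benjamini-Hochberg over all 11266 tested genes with a threshold of 0.05, called 0 of the 10 against 0.763% of all genes (86 of 11266). Of the 10 genes 0 were higher in KO, against 0.408% of all genes, and 0 were lower, against 0.355%. At an unadjusted p under 0.05 there were 2 of the 10 genes, Tap2 and Psmb9, against 9.81% of all genes. FPKM divides fragments by gene length and by the size of the library, and all 10 genes reached the mean of 1 FPKM required for testing. The median log2 change of the 10 genes was 0.14, beside -0.03 over all tested genes, and ran from 0.0626 (without KO 2) to 0.207 (without WT 4) when 1 library was left out. Values of single libraries are given below in the order of replicates 1 to 4, and errors written with ± are SDs over the 4 libraries of a group unless marked as SE (n = 4 each). The log2 changes ran from -0.17 for H2-K1 to 0.75 for Tap1. The 0 calls held in each of the 19 alternative analyses, in 1 of which only 6 of the 10 genes could be tested. WT 4 and KO 2 were left out together because of an earlier look at these data, and how far they differ from the other libraries was not measured here. In that fit the log2 changes of Tap2, Psmb9 and Tap1 were 0.73, 0.63 and 1.03 (limma adjusted p = 0.253, 0.551 and 0.389), beside 0.72, 0.70 and 0.75 with all libraries. The labels do not tie the replicates to separate animals, so the p-values reflect only how far these samples vary, and that variation could be technical.

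**Figure D1:**
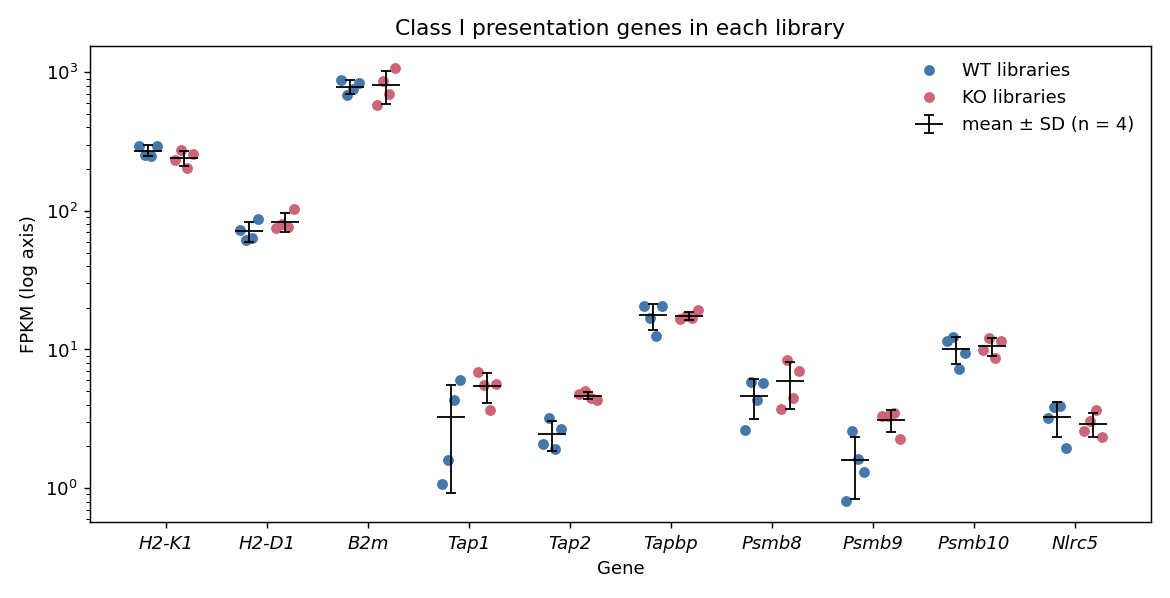
FPKM (log axis) of the 10 class I presentation genes in each of 4 WT and 4 KO libraries, with the mean and SD of each group. B2m, H2-K1 and H2-D1 lie far above the transporter, proteasome and Nlrc5 genes, and Tap2 is the gene whose KO points all lie above its WT points.

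Among the 5 genes of highest level, the levels differed far more between genes than between genotypes. In WT livers the mean level was 788 FPKM for B2m, 271 FPKM for H2-K1, 71.6 FPKM for H2-D1, 17.6 FPKM for Tapbp and 10.12 FPKM for Psmb10. The WT libraries of each of these 5 genes did not overlap those of the next gene in this order, nor did those of Psmb10 overlap those of Psmb8. Below them lay Psmb8 at 4.63 FPKM, Tap1 at 3.25 FPKM, Nlrc5 at 3.24 FPKM, Tap2 at 2.45 FPKM and Psmb9 at 1.58 FPKM. Neighbours in this lower group overlapped in their libraries. In KO livers Tap2 averaged 4.65 FPKM, above the WT mean of Psmb8, and Psmb9 averaged 3.09 FPKM, above the WT mean of Tap2.

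H2-K1, a classical heavy chain (ENSMUSG00000061232, chromosome 17, 33996017 to 34000347, GRCm38), measured 293, 252, 248 and 293 FPKM across the WT libraries and 232, 273, 203 and 259 FPKM across the KO libraries. The groups overlapped, and the lowest values were those of KO 3 and KO 1. Its log2 change was -0.17 (95% interval -0.54 to 0.20, limma adjusted p = 0.847). H2-D1, the other classical heavy chain (ENSMUSG00000073411, chromosome 17, 35262730 to 35267499), measured 72.8, 61.9, 63.8 and 88.02 FPKM across the WT libraries and 74.6, 80.7, 76.1 and 103.6 FPKM across the KO libraries. KO 4 was the highest library and WT 4 the next, and the groups overlapped. The log2 change of H2-D1 was 0.22 (95% interval -0.19 to 0.64, limma adjusted p = 0.811). Class I heavy chain genes are close copies of one another, and how the authors assigned reads shared between them is not given in the sources used here, so the values of single H2 genes are uncertain.

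B2m, the light chain of every class I molecule (ENSMUSG00000060802, chromosome 2, 122147686 to 122153083), measured 886, 679, 753 and 833 FPKM across the WT libraries. The KO libraries held 579.8, 858, 693 and 1079.8 FPKM. The lowest and the highest of the 8 values were both in KO livers. The group means were 788 ± 90.5 FPKM (WT) and 803 ± 217 FPKM (KO), a log2 change of -0.0047 with a 95% interval of -0.49 to 0.48 (limma adjusted p = 0.998). The ratio of summed H2-K1 and H2-D1 to B2m, which does not depend on the scaling of a library, was 0.437 ± 0.0264 in WT and 0.420 ± 0.0804 in KO (exact two-sided permutation p = 0.629). KO 1 had the highest ratio (0.529) and KO 4 the lowest (0.335), so the difference between the means was smaller than the spread within KO.

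Tap2, a subunit of the peptide transporter (ENSMUSG00000024339, chromosome 17, 34203527 to 34216321), measured 2.06, 3.20, 1.91 and 2.65 FPKM across the WT libraries and 4.79, 4.98, 4.48 and 4.35 FPKM across the KO libraries. All 4 KO libraries lay above all 4 WT libraries, and the KO values lay close together. Tap2 was the only 1 of the 10 genes without overlap and with KO higher, against 3.05% of all tested genes. The means were 2.45 ± 0.590 and 4.65 ± 0.286 FPKM, a log2 change of 0.72 ± 0.17 (SE; 95% interval 0.33 to 1.12). It did not pass (limma adjusted p = 0.128), and over the 18 alternatives that tested it the adjusted p ran from 0.104 to 0.280.

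Tap1, the partner subunit (ENSMUSG00000037321, chromosome 17, 34187553 to 34197225), measured 1.08, 1.58, 4.34 and 6.02 FPKM across the WT libraries and 6.87, 5.53, 3.67 and 5.66 FPKM across the KO libraries. WT 1 and WT 2 were low, while WT 3 and WT 4 lay within the range of the KO libraries. The log2 change was 0.75, with a wide interval (95% interval -0.11 to 1.60, limma adjusted p = 0.588). It was 0.46 without WT 1 and 0.57 without WT 2, in both cases below those of Tap2 (0.67 and 0.82) and Psmb9 (0.54 and 0.87). Tapbp (ENSMUSG00000024308, chromosome 17, 33915899 to 33929292) measured 20.6, 17.0, 12.6 and 20.4 FPKM across the WT libraries and 16.5, 17.5, 16.9 and 19.2 FPKM across the KO libraries. The KO values lay inside the WT range, with a log2 change of 0.01 (95% interval -0.41 to 0.44, limma adjusted p = 0.996).

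Psmb9 (ENSMUSG00000096727, chromosome 17, 34181987 to 34187764) encodes the immunoproteasome subunit that takes the place of Psmb6. It measured 0.812, 2.59, 1.62 and 1.30 FPKM across the WT libraries and 3.32, 3.32, 3.47 and 2.26 FPKM across the KO libraries. KO 1 to KO 3 lay above all WT libraries, and KO 4 lay below WT 2. The means were 1.58 ± 0.751 and 3.09 ± 0.561 FPKM, a log2 change of 0.70 ± 0.23 (SE; 95% interval 0.18 to 1.22, limma adjusted p = 0.311). In the GENCODE M21 annotation Tap1 and Psmb9 lie on opposite strands and share 212 exonic bases. Whether counting used strand is not given in the sources used here, so reads from that stretch cannot be assigned to 1 of them.

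Psmb8 (ENSMUSG00000024338, chromosome 17, 34197721 to 34201454), the counterpart of Psmb5 and so of the chymotrypsin-like site, measured 2.63, 5.80, 4.35 and 5.76 FPKM across the WT libraries. The KO libraries held 3.72, 8.36, 4.46 and 7.03 FPKM, with KO 2 and KO 4 high and KO 1 and KO 3 within the WT range (log2 change 0.28, 95% interval -0.36 to 0.92, limma adjusted p = 0.862). Psmb10 (ENSMUSG00000031897, chromosome 8, 105935735 to 105938444), the counterpart of Psmb7, measured 11.6, 12.3, 7.23 and 9.44 FPKM across the WT libraries and 9.86, 12.0, 8.61 and 11.5 FPKM across the KO libraries. All KO values of Psmb10 lay inside the WT range, and the log2 change was 0.06 (95% interval -0.39 to 0.52, limma adjusted p = 0.968).

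Nlrc5, the transactivator of class I genes (ENSMUSG00000074151, chromosome 8, 94434356 to 94527272), measured 3.21, 3.88, 3.92 and 1.96 FPKM across the WT libraries and 2.57, 3.05, 3.64 and 2.35 FPKM across the KO libraries. The KO values lay inside the WT range, and WT 4 was the lowest library. The log2 change was -0.10 (95% interval -0.58 to 0.38, limma adjusted p = 0.945).

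**Figure D2:**
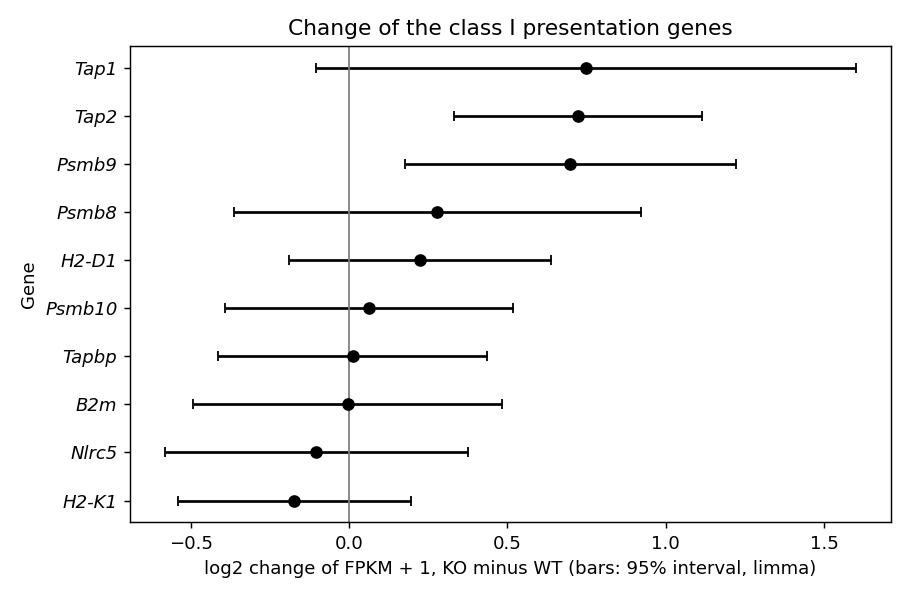
Change of each gene between KO and WT livers on the log2(FPKM + 1) scale, with 95% intervals from limma. The intervals of Tap2 (0.33 to 1.12) and Psmb9 (0.18 to 1.22) lie above 0 before adjustment for the number of genes tested, and the other 8 include 0.

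Tap1, Psmb9, Psmb8 and Tap2 lie side by side on chromosome 17, between 34181987 and 34216321, in the class II region of the MHC. They had the 4 largest log2 changes of the set (0.75, 0.70, 0.28 and 0.72), and the changes of the other 6 genes ran from -0.17 to 0.22. Psmb8 was below H2-D1 without WT 1 (0.0828 and 0.24), without KO 2 (0.11 and 0.24), and without WT 4 and KO 2 together (0.22 and 0.34). With equal sums of FPKM per library, which moved the median of all genes to -0.12, 5 of the 10 genes had a positive and 5 a negative change, and the median of the set was 0.04.

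The RNA of each immunoproteasome subunit was read as its share in the summed FPKM of itself and the constitutive subunit that it replaces. Subunit proteins and assembled proteasomes were not measured. The Psmb9 share of Psmb9 and Psmb6 was 2.10, 5.28, 3.82 and 2.31% across the WT libraries and 9.53, 8.85, 9.35 and 5.43% across the KO libraries. Every KO library lay above every WT library, KO 4 only just above WT 2. The means were 3.38 ± 1.48% and 8.29 ± 1.93%, with an exact two-sided permutation p of 0.0286, the smallest that 70 splits allow, and 0.114 after Benjamini-Hochberg adjustment over the 4 ratios tested. The difference therefore did not pass after adjustment. Psmb6 itself averaged 45.0 ± 7.55 FPKM (WT) and 34.7 ± 3.31 FPKM (KO) (limma adjusted p = 0.553).

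The Psmb8 share of Psmb8 and Psmb5 was 15.9, 26.9, 18.5 and 18.4% across the WT libraries and 19.9, 36.0, 19.9 and 24.8% across the KO libraries. The groups overlapped, and the highest share was in KO 2 (exact two-sided permutation p = 0.314, adjusted 0.571). The Psmb10 share of Psmb10 and Psmb7 was 33.4, 41.0, 21.9 and 21.8% across the WT libraries and 38.5, 34.5, 32.6 and 29.8% across the KO libraries. For this pair WT 2 lay above and WT 3 and WT 4 below all KO libraries (exact two-sided permutation p = 0.429, adjusted 0.571). In these livers Psmb9 held a smaller share of its pair than Psmb8 or Psmb10 did of theirs, in every library.

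**Figure D3:**
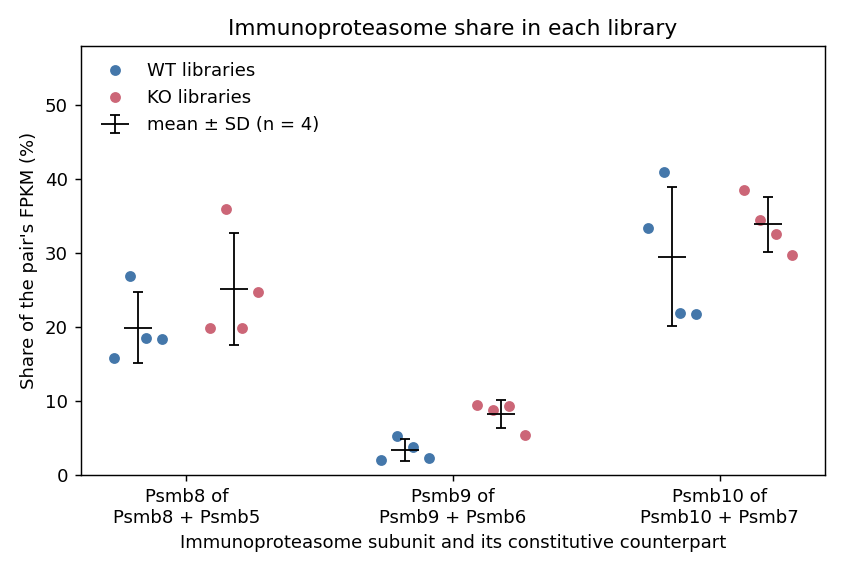
Share (%) of each immunoproteasome subunit in the summed FPKM of itself and its constitutive counterpart, in 4 WT and 4 KO libraries, with the mean and SD. The Psmb9 share lies between 2.10 and 5.28% in WT and between 5.43 and 9.53% in KO, while the groups overlap for Psmb8 and Psmb10.

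The other genes of the pathway were taken from lists. None of 13 genes of peptide trimming and loading passed, with 9 negative changes and a median of -0.07, which turned to 0.045 with 4 negative changes without WT 4. The smallest p was that of the chaperone gene Canx, averaging 80.2 ± 13.1 FPKM (WT) and 66.1 ± 16.4 FPKM (KO) (limma adjusted p = 0.768). The lectin chaperone Calr was at 205 ± 58.3 and 165 ± 73.8 FPKM, and the endopeptidase gene Nrd1 at 9.81 ± 2.32 and 11.7 ± 1.81 FPKM. None of 14 core subunits of the constitutive proteasome passed (13 negative changes, median -0.16), nor did any of 21 subunits of its regulatory particle (20 negative changes, median -0.23). The 1 positive change in the regulatory particle, that of Psmd14, had the smallest p of that list. Psmd14 averaged 5.10 ± 5.89 FPKM (WT) and 9.86 ± 2.83 FPKM (KO) (log2 change 1.28, limma adjusted p = 0.507), and its groups overlapped. Without WT 4 there were 9 negative changes with a median of -0.0384 in the core, and 14 with a median of -0.0626 in the regulatory particle. Without WT 4 and KO 2 the regulatory particle had 10 negative changes and a median of 0.00916. The interferon-inducible activator subunit Psme2 averaged 15.3 ± 3.90 FPKM (WT) and 18.1 ± 2.34 FPKM (KO) (limma adjusted p = 0.801). Among 10 activator and assembly genes, of which 0 passed, the assembly chaperone Psmg3 had the smallest p (6.99 ± 1.83 and 2.88 ± 1.47 FPKM, limma adjusted p = 0.167), and its KO libraries lay below all WT libraries.

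Of 22 other class I and class I-like genes in the table, 17 could be tested, and 0 passed (8 positive changes, 9 negative, median -0.03). H2-Q10 averaged 433 ± 37.8 FPKM (WT) and 476 ± 50.9 FPKM (KO), above H2-K1 in both groups (limma adjusted p = 0.878). It was not part of the ratio of H2-K1 and H2-D1 to B2m. H2-T24, a nonclassical class I gene, measured 0.208, 0.914, 0.894 and 0.501 FPKM across the WT libraries and 1.82, 2.01, 2.48 and 3.27 FPKM across the KO libraries. Its KO libraries lay above all WT libraries (log2 change 1.07, limma adjusted p = 0.0738), and it passed with quantile normalization (limma adjusted p = 0.0466). H2-T23, which encodes Qa-1, the class I molecule read by NKG2 receptors of NK cells, averaged 39.0 ± 9.96 FPKM (WT) and 56.1 ± 15.1 FPKM (KO) (limma adjusted p = 0.554). Cd1d1, which presents lipids to NKT cells, measured 40.5, 45.1, 39.1 and 55.9 FPKM across the WT libraries and 28.1, 38.0, 25.4 and 37.5 FPKM across the KO libraries, every KO library below every WT library (log2 change -0.48, limma adjusted p = 0.455). The share of tested genes with all KO libraries below all WT libraries was 3.18%.

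Among regulators of class I transcription 1 of 15 tested genes rose and 0 fell, against 0.408% and 0.355% of all tested genes. The gene that rose was Irf7, which drives transcription of type I interferon genes. It measured 3.86, 1.86, 2.75 and 4.39 FPKM across the WT libraries and 14.4, 8.56, 13.6 and 16.7 FPKM across the KO libraries. Every KO library lay above every WT library (log2 change 1.77, limma adjusted p = 0.0176), and the call held in 14 of 19 alternatives, with adjusted p up to 0.0695, and in 4 of the 8 that leave out 1 library. Irf9, which carries the interferon signal to the nucleus, was at 2.76 ± 0.786 FPKM in WT and at 4.25 ± 0.932 FPKM in KO (limma adjusted p = 0.502). Irf1, an interferon-gamma target that drives Tap1 and Psmb9, was at 6.70 ± 3.23 and 7.32 ± 1.30 FPKM (limma adjusted p = 0.915). None of 9 interferon receptor and signalling genes passed. They had 8 positive changes and a median of 0.23, but 6 and 0.0719 without KO 4, 6 and 0.104 without WT 2, and 5 and 0.137 with equal sums of FPKM per library. The smallest p was that of the receptor subunit Ifnar2 (19.8 ± 3.01 and 27.5 ± 5.48 FPKM, limma adjusted p = 0.491). Ifng, the interferon-gamma gene, was listed at 0 in all 8 libraries.

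Class II presentation genes and markers of macrophages were read in the same libraries. Of 5 tested class II presentation genes 1 passed, against 0.408% of all tested genes called higher. It was H2-Aa, a class II alpha chain (0.398 ± 0.169 to 8.43 ± 4.70 FPKM, log2 change 2.57, limma adjusted p = 0.0219). All 5 changes were positive with an unadjusted limma p under 0.05, against 9.81% of all genes in either direction. In 3 of the 5 every KO library lay above every WT library, against 3.05% of all genes. Cd74, the invariant chain, measured 1.70, 2.98, 2.83 and 3.66 FPKM across the WT libraries and 19.5, 5.79, 35.0 and 35.8 FPKM across the KO libraries (limma adjusted p = 0.0655). KO 2 was the lowest KO library in this gene. Without KO 2 all 5 class II genes passed, against 1 of 5 with all libraries, in a fit that called 92 of 11320 genes higher. Leaving out any 1 of the other 7 libraries, or adding the replicate block, left 0 of 5. Of 12 tested macrophage and Kupffer cell markers 1 passed with all libraries, against 0.408% of all tested genes called higher. The marker that passed was Mpeg1 (2.68 ± 0.444 to 14.7 ± 6.55 FPKM, limma adjusted p = 0.0169), and 11 passed without KO 2. Leaving out any 1 of the other 7 libraries gave 0 or 1 of these markers, and the replicate block 0. With all libraries the 12 changes were positive (median log2 change 2.085), each with an unadjusted limma p under 0.05. In 11 of the 12 every KO library lay above every WT library. The summed level of the 13 markers in the table ran from 9.91 to 19.8 FPKM in WT and from 36.2 FPKM in KO 2 to 183 FPKM in KO 3. The call of H2-Aa held in 8 of 18 alternatives and in 1 of the 8 that leave out 1 library, and that of Mpeg1 in 12 of 19 and 4 of 8, with limma adjusted p up to 0.0992 and 0.0695. In bulk tissue, more cells of a type and more RNA per cell cannot be told apart.

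Levels of the class I genes were set beside these markers library by library. KO 2, whose macrophage sum was 2.53 times the WT mean against 7.21, 12.8 and 11.02 times in KO 1, KO 3 and KO 4, had the highest Tap2 value of all libraries, 2.03 times the WT mean against 1.95, 1.82 and 1.77 times in the others. Psmb9 was at 2.10 times the WT mean in both KO 1 and KO 2, at 2.20 times in KO 3, where the macrophage sum was highest, and at 1.43 times in KO 4. Tap1 was at 2.11, 1.70, 1.13 and 1.74 times in KO 1 to KO 4. Psmb8 was highest in KO 2, at 1.80 times the WT mean. Among the KO libraries B2m and H2-K1 were lowest in KO 1 and KO 3, where the macrophage sum was 7.21 and 12.8 times the WT mean, at 0.736 and 0.880 times (B2m) and at 0.855 and 0.748 times (H2-K1). KO 4, with a macrophage sum of 11.02 times the WT mean, had the highest values of all libraries for B2m (1.37 times) and H2-D1 (1.45 times). The summed endothelial markers were 27.6, 14.6, 27.4 and 17.8 FPKM in KO 1 to KO 4, against at most 8.19 FPKM in WT. The summed stellate cell markers were 28.7, 14.2, 11.7 and 19.4 FPKM, against at most 7.40 FPKM in WT. Tap1 had the same order over the KO libraries as the stellate cell sum, and Tap2 and Psmb9 did not. Over the WT libraries Tap1 rose from WT 1 to WT 4 (1.08, 1.58, 4.34 and 6.02 FPKM). In WT the macrophage sum rose in that order (9.91, 11.8, 15.8 and 19.8 FPKM). So did the endothelial sum (2.27, 5.38, 5.91 and 8.19 FPKM) and the stellate cell sum (2.60, 2.72, 6.43 and 7.40 FPKM). Tap2 and Psmb9 did not follow that order in WT. The part of macrophages, endothelial cells or stellate cells in the levels of Tap1, Tap2 and Psmb9 was not tested.

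**Figure D4:**
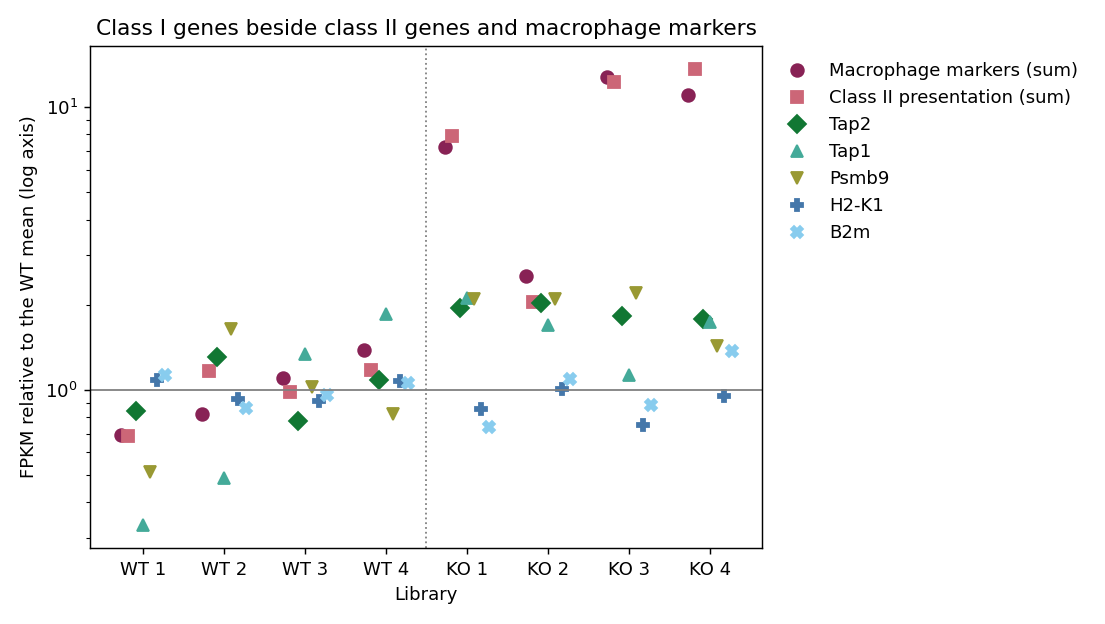
Summed macrophage markers, summed class II presentation genes and 5 class I presentation genes in each library, as FPKM relative to the WT mean (log axis; points of a library are set side by side). In KO 3 the macrophage and class II sums reach 12.8 and 12.3 times the WT mean, while H2-K1 and B2m stand at 0.748 and 0.880 times, and in KO 4 the sums reach 11.02 and 13.7 times while B2m stands at 1.37 times.

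Markers of other cells were read in the same way. The pan-leukocyte list summed to 0.576 to 2.19 FPKM in WT and to 1.73 to 16.5 FPKM in KO, with Ptprc (CD45) at 0.131 ± 0.137 and 0.681 ± 0.468 FPKM. T cell markers, all 9 in the table under the testing minimum, summed to 0.0589 to 0.366 FPKM in WT and to 0.102 to 0.371 FPKM in KO. Of the T cell markers, Cd3e was listed at 0 in the 4 WT libraries, KO 1 and KO 3, and Cd8a at 0 in WT 3, KO 3 and KO 4. NK cell markers summed to at most 0.152 FPKM in WT and 0.550 FPKM in KO, with Klrb1c listed at 0 in all libraries. B cell markers summed to at most 0.575 and 0.550 FPKM, dendritic cell markers to 0.610 and 1.61 FPKM, and neutrophil markers to 0.121 and 1.002 FPKM. Cholangiocyte markers summed to at most 0.792 and 6.84 FPKM, of which Spp1, a gene that macrophages also express, held 6.72 FPKM in KO 3. Krt19, Epcam, Krt7 and Cftr were listed at 0 in all WT libraries and at no more than 0.109 FPKM in KO, and Sox9 averaged 0.298 ± 0.166 FPKM (WT) and 0.0558 ± 0.0474 FPKM (KO). Endothelial markers ran from 2.27 to 8.19 FPKM in WT and from 14.6 to 27.6 FPKM in KO, and stellate cell markers from 2.60 to 7.40 FPKM and from 11.7 to 28.7 FPKM. Hepatocyte genes, which define the tissue, summed to 30419 to 42131 FPKM in WT and 33473 to 48346 FPKM in KO, and 0 of 10 passed (median log2 change 0.02).

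The mean profile of the 10 genes over the 8 libraries was nearest to those of Adprhl2, Sh3bp5, Slc35a2, F2 and Kifap3, with root mean square differences of 0.06 to 0.08 on the centred log2 scale. The 10 genes themselves lay 0.16 (H2-D1) to 0.57 (Tap1) from their own mean profile.

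Arid1a, the targeted gene, averaged 5.41 ± 2.05 FPKM (WT) and 2.90 ± 0.386 FPKM (KO), with all KO libraries below all WT libraries (limma adjusted p = 0.316). The values cover the whole gene, and which exons are flanked by loxP sites is not given in the sources used here. Depth, estimated from the steps between low values, was about 12400000 to 15200000 reads per library.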

How the data were processed

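Per the labels' protocols, frozen liver was extracted in Trizol, total RNA purified on miRNeasy columns (Qiagen), and libraries built with Nugen reagents. The authors deposited FPKM values per gene in 1 column per sample, and columns were matched to samples by name. The submitters' processing notes name TopHat, edgeR and mm10 as the build. Which step each tool served, the annotation and whether strand was used is not given in the sources used here. Because FPKM is relative to the reads of a library, abundant transcripts depress the other values.

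Values were taken as log2(FPKM + 1), so a fold change is on the log2(FPKM + 1) scale and understates the change of low genes. The 11266 genes with a mean of at least 1 FPKM were fitted on genotype with limma 3.58.1 in R 4.3.3 (two-sided, variance moderated with an intensity trend, Benjamini-Hochberg adjustment). No count model was applied to FPKM. Ratios were tested by exact permutation (two-sided, 70 splits). Of the gene IDs 99.4% matched GENCODE M21 (GRCm38, the build mm10). Depth was estimated from genes with a single annotated transcript. At those depths 55.0 to 59.8% of low values came within 0.1 of a whole read (20% by chance), so reads were not rebuilt. Plots used matplotlib 3.10.9, and promoters were aligned with Biopython 1.88. The fit was tested on simulated data.

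The genes and lists were chosen with earlier results of these data known. All 10 genes were named, with those of each pathway list that passed and up to 3 more of smallest p where they add a role. The defining markers of each cell type and the 5 nearest profiles were named too, and Cd74, H2-T23, Irf1, Calr and other genes outside this rule were named as background to their lists after their values had been seen. Alternatives were other pseudocounts (0.1 and 5 FPKM), filters (none, or a mean of 5 FPKM) and scalings, limma with array weights or with no variance trend, a block on the replicate number, and leaving out libraries.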

Additional observations from a re-analysis of the deposited data

Results flagged for a closer look

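Psmb9 in KO 4 was at 2.26 FPKM, apart from 3.32, 3.32 and 3.47 FPKM in the other KO libraries, with a gap to the nearest of 0.874 of the group's range, above Dixon's 95% critical value for 4 samples. The Psmb9 share of Psmb9 and Psmb6 was 5.43% in KO 4, apart from 8.85, 9.35 and 9.53% in the other KO libraries (0.832 of the range). These were the 2 cases among 28 groups examined, both rest on the same Psmb9 value, and chance flags about 1 in 20 groups.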

How the results depend on the processing

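In all 19 alternatives 0 of the class I presentation genes passed in either direction, with 6 of 10 genes testable at a mean of at least 5 FPKM. Tap2, Psmb9, Tap1, Psmb8, H2-D1, H2-K1 and Nlrc5 kept the sign of their change in each alternative that tested them. B2m changed sign with median ratio scaling (0.0119) and in fits without 1 library (-0.16 to 0.14), as did Tapbp with equal sums (-0.0948) and without 1 library (-0.13 to 0.0910), and Psmb10 with equal sums (-0.0392), without WT 4 and KO 2 together (-0.02) and without 1 library (-0.0736 to 0.16). None of these values passed. The difference in the ratio of H2-K1 and H2-D1 to B2m turned from -0.0170 to 0.0111 without KO 4 (range -0.0534 to 0.0111 when 1 library was left out). The difference in the Psmb9 share was 4.48 to 5.86 percentage points when 1 library was left out, with an exact permutation p of 0.0571 without any 1 WT library. It was 4.37 points without WT 4 and KO 2 together, where the smallest p that 20 splits allow is 0.1.

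The counts over all genes depended more on the settings. The number higher in KO was 27 with a pseudocount of 5 FPKM and 14 with a mean of at least 5 FPKM, in place of 46. It ranged from 20 to 92 when 1 library was left out and was 75 without WT 4 and KO 2 together. The number lower in KO was 26 with no filter and 13 with a mean of at least 5 FPKM, in place of 40, and ranged from 14 to 44 when 1 library was left out. A mean of at least 5 FPKM left 5119 genes, and the cause of the other shifts was not tested.

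With the replicate number as a block 16 genes were higher and 8 lower, and the Psmb9 share differed by 4.91 points (exact sign-flip p = 0.125, the smallest that 4 pairs allow). The deviations of same-numbered libraries correlated at 0.0964, -0.0668, 0.0151 and 0.250 across genes for numbers 1 to 4. The value of WT 4 and KO 4 was the highest of all pairs, while WT 2 correlated best with KO 1 (0.129). Some libraries correlated best with their own number and others did not. With only 1 pair per number, these values cannot decide whether libraries of the same number were paired. Values near 1 FPKM, as for Psmb9 in WT, are the least precise.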
